A study of Mus musculus with 9 samples.

Results

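The 10 genes described here encode B cell inhibitory receptors that carry the immunoreceptor tyrosine-based inhibitory motif (ITIM) or a motif like it, and the phosphatases that work with them. They were taken by gene symbol from the 24346 genes of the expression tables: 8 receptors (Cd22, Siglecg, Cd72, Cd5, Pirb, Lair1, Sirpa and Pecam1) and 2 phosphatases (Ptpn6 and Inpp5d). All 10 were found in every library. RNA-seq was performed on sorted splenic B cells of wild-type C57BL6 mice, with 3 libraries per group. The groups were follicular (FO) B cells at 8 weeks of age (young FO B cells), FO B cells at 50 weeks (aged FO B cells) and age-associated B cells at 50 weeks (ABCs). No treatment or transgene is named for these mice. Both gates required high B220 and left out CD43-positive cells. FO B cells were CD23-positive and CD21-low, whereas ABCs were CD23-negative and CD21-low and bore both CD11b and CD11c. The study's figure legend gives 3 mice per group. Whether a library pooled mice, and which libraries of aged mice share a mouse, is not stated in the labels, so that p-values measure the spread between libraries.

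Inhibitory receptors of this kind are phosphorylated on their ITIMs by Src family kinases, mainly Lyn in B cells. The phosphorylated motifs recruit the tyrosine phosphatase SHP-1, encoded by Ptpn6, or the lipid phosphatase SHIP-1, encoded by Inpp5d, which dampen signaling from the B cell receptor (BCR). The ligands differ among the receptors, with sialic acid on glycoproteins for both CD22 and Siglec-G, CD100 for CD72, MHC class I for PIR-B and CD47 for SIRPα.

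To show the start sites of members that differ in how they moved, 4 promoters from RefSeq on GRCm38.p6 are given, each 5′ to 3′ in the direction of its gene. Of the 10 members, 8 matched an entry of the promoter table, and Sirpa and Pecam1 did not. Cd72 and Pirb were higher in ABCs than in FO B cells, Siglecg was lower, and Inpp5d was not called in any comparison. Capitals mark 2 of 3 short motifs searched for on both strands in the 250 bases before the start site: GAGGAA, the core bound by PU.1-type ETS factors, which reads TTCCTC where it lies on the opposite strand, and CAGGTG, an E-box bound by ZEB-type factors. The third, AGGTGT, is the core of a T-box site and shares 5 letters with the E-box where both lie in CAGGTGT, and it is in none of the 4 sequences. Cd72 (minus strand, chr4:43454627-43454876), Pirb (minus strand, chr7:3720383-3720632) and Inpp5d (plus strand, chr1:87620062-87620311) are given from 250 bases before the start to the base before it, and Siglecg (plus strand, chr7:43407989-43408188) from 250 to 51 bases before it. In GENCODE M21 the last 2 bases of the Cd72 sequence and the last 9 of the Pirb sequence lie in an exon, and the rest is upstream.
Cd72: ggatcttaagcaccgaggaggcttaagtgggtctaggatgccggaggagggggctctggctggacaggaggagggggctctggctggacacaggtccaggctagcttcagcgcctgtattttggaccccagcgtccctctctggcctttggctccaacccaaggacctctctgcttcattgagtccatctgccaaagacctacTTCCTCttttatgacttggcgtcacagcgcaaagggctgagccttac
Pirb: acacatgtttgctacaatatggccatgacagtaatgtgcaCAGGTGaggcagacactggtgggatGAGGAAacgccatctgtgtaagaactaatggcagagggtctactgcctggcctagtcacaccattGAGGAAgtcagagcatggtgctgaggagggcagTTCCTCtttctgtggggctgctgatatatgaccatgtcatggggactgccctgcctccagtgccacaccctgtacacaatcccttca
Siglecg: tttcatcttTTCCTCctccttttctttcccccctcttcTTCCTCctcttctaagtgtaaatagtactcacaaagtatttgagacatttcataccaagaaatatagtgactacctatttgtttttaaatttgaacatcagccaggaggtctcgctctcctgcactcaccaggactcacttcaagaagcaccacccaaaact
Inpp5d: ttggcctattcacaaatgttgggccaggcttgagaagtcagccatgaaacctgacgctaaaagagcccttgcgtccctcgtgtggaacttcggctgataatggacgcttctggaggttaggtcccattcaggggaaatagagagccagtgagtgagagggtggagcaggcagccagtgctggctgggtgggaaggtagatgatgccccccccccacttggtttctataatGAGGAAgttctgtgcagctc

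Of the 8 matched members, Siglecg has 2 promoter windows in the table, which overlap each other, and this makes 9 windows. GAGGAA was found in 6 of them (Siglecg, Cd72, Cd5, Pirb, Lair1 and Inpp5d), against 23.3% of 32851 promoter windows of the same length. The Cd72 window held 1 match, 47 to 42 bases before the start and on the opposite strand. In Pirb there were 3 such matches and 1 CAGGTG. Siglecg, which moved the other way, held 2 GAGGAA matches in the window shown and 0 matches of any of the 3 motifs in its other window (chr7:43408030-43408279), and Inpp5d held 1. The other Siglecg window begins within the second Siglecg match, so that it holds neither match whole. CAGGTG was found in 4 of the 9 windows (Cd22, Cd5, Pirb and Ptpn6) against 17.2% of all windows. AGGTGT was found in 3 (Cd22, Cd5 and Lair1) against 11.8%, and in Cd22 and Cd5 it overlapped a CAGGTG. The Cd22 window (chr7:30879029-30879278) lies inside the Cd22 gene of GENCODE M21, with 102 exonic bases, and is not upstream of that gene. These matches describe the letters of the windows, and binding was not measured.

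The deposited expression values are FPKM, fragments scaled by the length of the transcript and the number of mapped reads. FPKM is scaled per length, so that the levels of different genes can be set beside each other. The 9 libraries held an estimated 7430000 to 9040000 mapped reads and listed 10032 to 10445 genes at 1 FPKM or more. Libraries of a FO B group correlated with each other at 0.973 to 0.976 (Pearson's r of log2(FPKM + 1) across genes). ABC replicates 1 and 2 correlated at 0.980, whereas replicate 3 correlated with them at 0.964 and 0.958 and stands apart. The sort could be read in the data: Fcer2a, which encodes CD23, was at 697 to 728 FPKM in aged FO B cells and at 0.463 to 6.95 FPKM in ABCs, and Itgax, which encodes CD11c, was at most 0.206 FPKM in them and 45.0 to 59.7 FPKM in ABCs. Spn, which encodes CD43, was at 54.1 to 86.7 FPKM in ABCs against 2.75 to 3.32 FPKM in aged FO B cells, although both gates left out CD43-positive cells. The sum of 4 B lineage genes was 6957 to 7336 FPKM in aged FO B cells and 5385 to 7278 FPKM in ABCs. Among the ABC libraries, each of the 4 genes was lowest in replicate 3. Cd79a, for example, was at 3252, 3562 and 2462 FPKM in ABC replicates 1 to 3.

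In aged FO B cells the member with the highest level was Ptpn6, followed by Cd72, Cd22 and Siglecg, with no overlap between neighbours in this order. Pecam1, Inpp5d and Pirb followed between 44.4 and 73.2 FPKM, and Pecam1 and Inpp5d did not differ beyond the spread of their libraries. Sirpa, Lair1 and Cd5 were near or under 1 FPKM. The order in ABCs was another one, with Cd72 first, then Ptpn6 and Cd22 with overlapping libraries, and then Siglecg, Pirb, Inpp5d, Pecam1 and Sirpa, of which the last 2 overlapped. Cd5 and Lair1 stayed lowest.

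**Figure D1:**
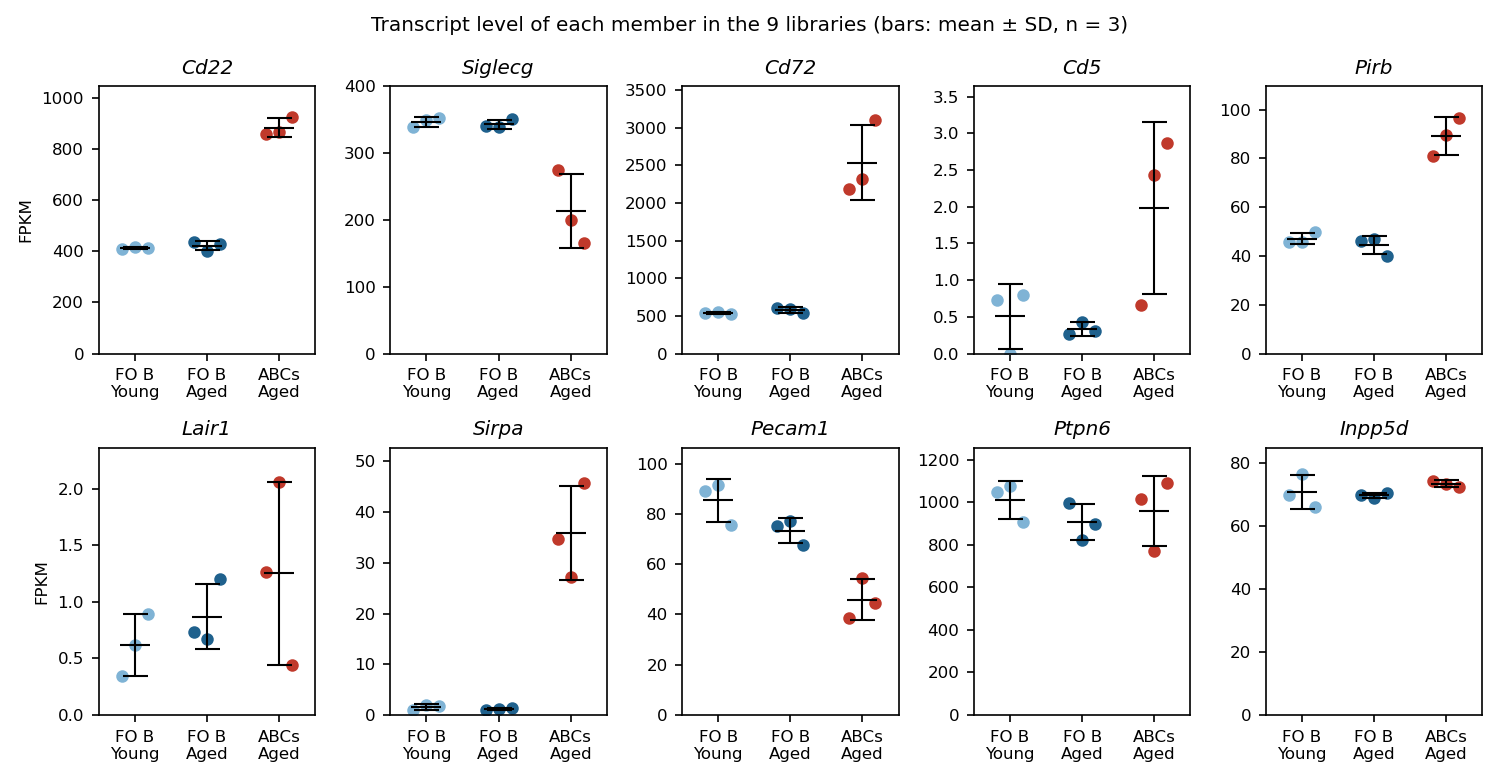
FPKM of each member (y axis, linear and starting at 0, a scale of its own per gene) in young FO B cells, aged FO B cells and ABCs. Points are the 3 libraries of a group in the order of their replicate numbers and bars are the mean ± SD; Cd22, Cd72, Pirb and Sirpa of all 3 ABC libraries lie above every FO B library, and Siglecg and Pecam1 below.

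To ask how ABCs differ from FO B cells of the same age, log2(FPKM + 1) was compared in limma over the 10412 genes that averaged 1 FPKM or more, and a gene was called at a Benjamini-Hochberg FDR under 0.05. Of the 10 members, 5 were higher in ABCs (Cd22, Cd72, Cd5, Pirb and Sirpa), 2 were lower (Siglecg and Pecam1) and 3 were not called (Lair1, Ptpn6 and Inpp5d). Among all genes tested, 35.9% were called, 19.4% higher and 16.5% lower. Cd5 passed the filter only through its ABC libraries, and its call was lost with no filter (FDR = 0.0669, limma), so that 6 members are called without relying on it. Neither phosphatase was called. The median log2 fold change of all 10 members was 0.60, beside -0.01 over all genes. This median was not tested, and it includes Cd5 and Lair1, which both passed the filter only through their ABC libraries. In 8 of the 10 members the 3 ABC libraries did not overlap the 3 libraries of FO B cells, Cd5 among them, and this held for 52.6% of all genes tested. Because 1 FPKM was added before taking logs, these fold changes understate the change of genes near 1 FPKM. In bulk samples, fewer cells with a transcript and less of it per cell cannot be told apart.

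Cd22, a sialic acid-binding coreceptor that restrains BCR signaling in mature B cells, was at 861, 867 and 926 FPKM in ABC replicates 1 to 3. Aged FO B cells had 437, 403 and 428 FPKM, and young FO B cells 409.6, 416 and 412 FPKM. The ABC libraries were all far above the FO B libraries, which lay close together at both ages. Means were 885 ± 36.2 FPKM in ABCs and 423 ± 17.2 in aged FO B cells (SD, n = 3), a 2.09-fold difference (log2 fold change 1.06, SE 0.07, FDR = 6.33e-05, limma). The gene lies at chr7:30865402-30880342 on the minus strand and overlaps the gene Gm29439 in GENCODE M21.

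Siglecg encodes the other sialic acid-binding receptor of the group, known for its strong effect in B-1 cells, and it moved the opposite way. ABC replicates 1 to 3 had 274, 200.2 and 166 FPKM, against 340.1, 338 and 351 FPKM in aged FO B cells and 339, 349.5 and 353 FPKM in young FO B cells. All ABC libraries were below all FO B libraries, with more spread among themselves. The means of 213 ± 55.3 and 343 ± 6.52 FPKM (SD, n = 3) differed with a log2 fold change of -0.71 (SE 0.17, FDR = 0.0143, limma). The FDR was 0.0512 without replicate 3 of aged FO B cells. Siglecg lies at chr7:43408204-43418358 on the plus strand. The ratio of Cd22 to Siglecg was 1.17 to 1.28 in all 6 FO B libraries and 3.14, 4.33 and 5.59 in the ABC libraries, so that 2 receptors of related ligands that were at similar levels in FO B cells were far apart in ABCs (exact two-sided permutation p = 0.1 against aged FO B cells, the smallest that 3 against 3 libraries can give).

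Cd72, a lectin-like coreceptor whose ligand CD100 is encoded by Sema4d, had the largest difference in FPKM of all members. ABC replicates 1 to 3 held 2181, 2319 and 3100.1 FPKM. Aged FO B cells held 603, 596 and 537 FPKM and young FO B cells 542, 545 and 519 FPKM. Every ABC library exceeded every FO B library several times over, and replicate 3 was the highest. Means were 2533 ± 496 and 579 ± 36.1 FPKM (SD, n = 3), a 4.38-fold difference with a log2 fold change of 2.11 (SE 0.14, FDR = 7.51e-05, limma). Without ABC replicate 3 the log2 fold change was 1.96. Cd72 (chr4:43446462-43454628, minus strand) overlaps Tesk1, which averaged 9.61 ± 2.60 FPKM in ABCs against 13.2 ± 1.13 FPKM in aged FO B cells (SD, n = 3).

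Pirb, which encodes the MHC class I-binding receptor PIR-B, was at 81.1, 89.5 and 96.6 FPKM in ABC replicates 1 to 3. Its level was 46.3, 46.8 and 40.1 FPKM in aged FO B cells and 45.5, 45.9 and 49.6 FPKM in young FO B cells. The groups of FO B cells overlapped and all ABC libraries were above them. ABCs averaged 89.1 ± 7.77 FPKM and aged FO B cells 44.4 ± 3.72 (SD, n = 3), a 2.01-fold difference (log2 fold change 0.99, SE 0.09, FDR = 0.000353, limma). Pirb (chr7:3711409-3720391, minus strand) belongs to a family with the activating Pira genes, whose copies are near-identical in part. Pira2 and Pira6 were also higher in ABCs, with log2 fold changes of 1.12 (FDR = 0.00352, limma) and 1.16 (FDR = 0.00605, limma), and how shared reads were split among these genes is not known.

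Sirpa encodes SIRPα, a receptor for CD47 best known from macrophages and dendritic cells. It was near 1 FPKM in FO B cells, at 0.973, 1.28 and 1.42 FPKM in aged FO B cells and 0.924, 1.97 and 1.84 FPKM in young FO B cells. ABC replicates 1 to 3 held 34.7, 27.2 and 45.7 FPKM. No ABC library was near a FO B library. The mean of 35.9 ± 9.28 FPKM was 29.3 times the 1.22 ± 0.228 FPKM of aged FO B cells (SD, n = 3), and the log2 fold change of 4.03 (SE 0.19, FDR = 1.91e-05, limma) was the largest of the members. Sirpa (chr2:129592835-129632228, plus strand) was the only member past the larger thresholds of the study, 2.3 for the log2 fold change in either direction and 0.01 for the FDR, which 1.92% of all genes passed.

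Because Sirpa is a gene of myeloid cells, markers of those cells are given beside it. The summed level of 8 macrophage and monocyte markers was 194 to 238 FPKM in ABCs and 9.12 to 15.3 FPKM in aged FO B cells. Most of the sum in ABCs was Adgre1, at 174 to 222 FPKM. The mean of 5 of the 8 markers was under 1 FPKM in ABCs: Csf1r was at 0.301 to 0.831 FPKM, Cd14 at 0.152 to 0.252 FPKM, and Fcgr1 was at 0 in 2 of the 3 libraries. Cd68 was higher in every ABC library, at 6.38 to 13.1 FPKM against 3.15 to 4.70 FPKM in aged FO B cells. Lyz2, abundant in macrophages, ranged from 2.22 to 7.02 FPKM in ABCs and from 2.28 to 7.06 FPKM in aged FO B cells. The summed level of 6 dendritic cell markers was 4.39 to 7.42 FPKM in ABCs and 2.40 to 4.55 FPKM in aged FO B cells. Among them Zbtb46 was at 2.90 to 3.34 FPKM in ABCs against 0.437 to 1.46 FPKM. Flt3 went the other way, at 0.105 to 1.17 FPKM in ABCs against 1.11 to 2.85 FPKM in aged FO B cells. The part of these markers' cells in the Sirpa level was not tested.

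Pecam1 (chr11:106654217-106750628, minus strand) encodes CD31, an adhesion receptor that binds itself and, as a second ligand, CD38. It was at 38.7, 54.6 and 44.4 FPKM in ABC replicates 1 to 3. Aged FO B cells had 75.0, 77.0 and 67.6 FPKM, and young FO B cells 88.9, 91.6 and 75.7 FPKM. The ABC libraries were all below the FO B libraries, which overlapped between ages. The means of 45.9 ± 8.04 and 73.2 ± 4.94 FPKM (SD, n = 3) gave a log2 fold change of -0.67 (SE 0.13, FDR = 0.00616, limma). The 6 platelet and endothelial markers, from cells rich in CD31, summed to 0.857 to 2.94 FPKM in ABCs and 0.152 to 0.804 FPKM in aged FO B cells, with a mean under 1 FPKM for each in both groups.

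Cd5 and Lair1 were at the edge of detection. Cd5 (chr19:10717116-10739002, minus strand), which marks T cells and B-1a cells and restrains antigen receptor signaling, was at 0.656, 2.43 and 2.86 FPKM in ABC replicates 1 to 3, which is 10, 41 and 44 reads as recovered from the size of 1 read in its FPKM values. Aged FO B cells held 0.265, 0.435 and 0.303 FPKM (4, 8 and 5 reads). In young FO B cells it was at 0.727, 0 and 0.792 FPKM (12, 0 and 13 reads), where 0 reads still allow 0.184 FPKM (3 reads, counting error only). ABC replicate 1 was above all libraries of aged FO B cells but below 2 of young FO B cells, and replicates 2 and 3 stood above all 6. Cd5 passed the filter only through its ABC libraries. Its log2 fold change over aged FO B cells was 1.07 (SE 0.32, FDR = 0.0383, limma). The call was lost with no filter on low values (FDR = 0.0669), with quantile normalization (FDR = 0.166) and without any one library of aged FO B cells (FDR = 0.0797 to 0.108), and without ABC replicate 2 or 3 the gene was under the filter.

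Both cell types that Cd5 marks were read from their own lists. The summed level of 5 B-1 cell markers was 765 to 925 FPKM in ABCs and 425 to 486 FPKM in aged FO B cells. Most of the sum in both groups was Plac8, at 576 to 684 FPKM in ABCs and 420 to 478 FPKM in aged FO B cells. Within the list Bhlhe41 was at 26.1 to 32.1 FPKM against 1.31 to 1.43 FPKM, and Zbtb32 at 104.9 to 122.7 FPKM against 0.708 to 2.88 FPKM. Each of the 5 markers was higher in every ABC library than in every library of aged FO B cells. The 7 T cell markers summed to 5.10 to 37.9 FPKM in ABCs and 0.170 to 0.592 FPKM in aged FO B cells. Nearly all of this was Cd3g (9.63, 37.0 and 4.93 FPKM in ABC replicates 1 to 3), while the other 6 markers were under 1 FPKM on average and Cd3e was at 0 in 8 of the 9 libraries. Their part in the Cd5 level was not tested.

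Lair1 (chr7:4003402-4063204, minus strand) encodes a collagen receptor. It was at 1.26, 2.06 and 0.439 FPKM in ABC replicates 1 to 3, at 0.733, 0.673 and 1.20 FPKM in aged FO B cells and at 0.341, 0.621 and 0.891 FPKM in young FO B cells. The groups overlapped and the highest and the lowest values among the aged libraries were both of ABCs. The log2 fold change of 0.21 had a 95% confidence interval of -0.48 to 0.90 (FDR = 0.598, limma). It was 0.50 without ABC replicate 3 (FDR = 0.118, limma) and 0.14 without aged replicate 2, with no call in either case. A difference could not be told from the spread between libraries. Lair1, too, passed the filter only through its ABC libraries.

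The 2 phosphatases were not called in any comparison. Ptpn6 (chr6:124720707-124738714, minus strand, overlapping Gm20531) was at 1017, 774 and 1091 FPKM in ABC replicates 1 to 3, at 997, 825 and 900.5 FPKM in aged FO B cells and at 1049, 1079 and 910.1 FPKM in young FO B cells. All 3 groups overlapped. ABCs and aged FO B cells averaged 960.3 ± 166 and 908 ± 86.2 FPKM (SD, n = 3), with a log2 fold change of 0.07 and a 95% confidence interval of -0.26 to 0.40 (FDR = 0.722, limma). Inpp5d (chr1:87620312-87720507, plus strand) was at 74.4, 73.4 and 72.3 FPKM in ABC replicates 1 to 3, at 69.8, 68.9 and 70.4 FPKM in aged FO B cells and at 69.7, 76.6 and 66.0 FPKM in young FO B cells. The ABC libraries were slightly above all libraries of aged FO B cells and within the range of young FO B cells. The log2 fold change of 0.07 had a 95% confidence interval of -0.06 to 0.21 (FDR = 0.353, limma). Both intervals leave out a change as large as that of Cd22.

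**Figure D2:**
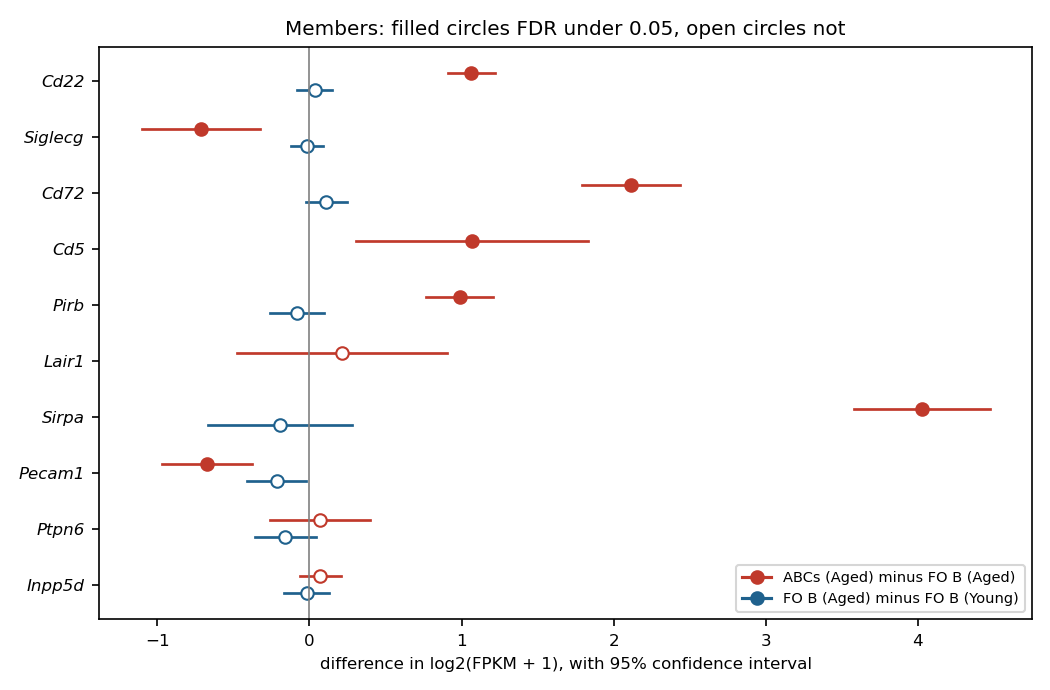
Difference in log2(FPKM + 1) (x axis) of each member between ABCs and aged FO B cells (red) and between aged and young FO B cells (blue), with 95% confidence intervals; filled circles have an FDR under 0.05. Sirpa (4.03) and Cd72 (2.11) lie farthest to the right, Siglecg (-0.71) and Pecam1 (-0.67) lie left of 0, no blue circle is filled, and Cd5 and Lair1 have no blue circle because they were under the filter.

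The receptor transcripts changed in amount and in make-up. The summed FPKM of the 8 receptors was 1430.1 ± 19.2 in young FO B cells, 1464 ± 38.2 in aged FO B cells and 3806 ± 502 in ABCs (SD, n = 3). Cd72 held 37.4% of the sum in young and 39.5% in aged FO B cells, and 62.8%, 65.1% and 70.7% in ABC replicates 1 to 3. The share of Cd22 was 28.9% in both FO B groups and 23.4% in ABCs, although its level was higher there. Siglecg went from 24.3% and 23.4% in young and aged FO B cells to 5.77% in ABCs. ABCs thus carried mainly Cd72 and Cd22 transcripts among these 8 receptors, whereas in FO B cells Siglecg was close behind Cd22. The receptor sum was 1.62 times the FPKM of Ptpn6, which was not called, in aged FO B cells and 4.01 times in ABCs. These sums describe the members and were not tested.

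**Figure D3:**
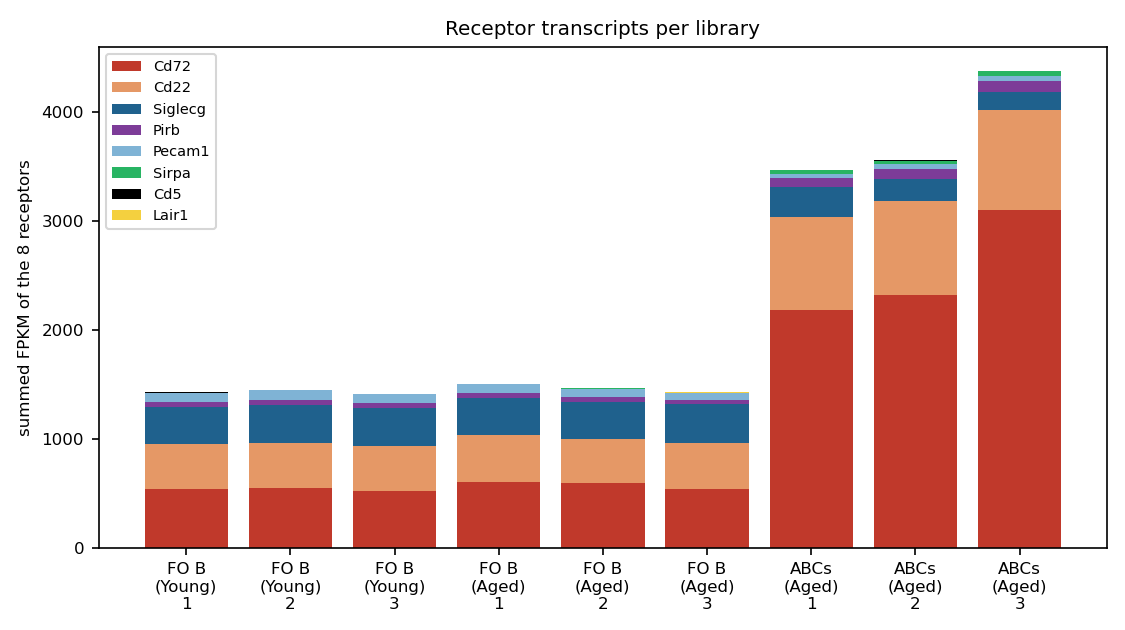
Summed FPKM of the 8 receptors (y axis, starting at 0) in each of the 9 libraries (x axis), stacked by receptor. The 6 FO B columns lie between 1413 and 1503 FPKM, and the ABC columns reach 3472, 3562 and 4382 FPKM, mostly through Cd72 in red.

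Set among all genes at 1 FPKM or more in a library, Cd72 was in the 98.2 to 98.4 percentile range in aged FO B cells and in the 99.6 to 99.8 range in ABCs. Pirb went from the 74.6 to 78.5 range to the 86.9 to 88.8 range. Siglecg went down from 97.1 to 97.2 to 93.4 to 96.3, so that it was still among the more abundant transcripts of ABCs. Ptpn6 lay between the 98.7 and 99.2 percentiles in all 9 libraries.

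To ask whether the members differ with age within FO B cells, those of aged and young mice were compared across 10122 genes. Cd5 and Lair1 were under the filter, and of the 8 members tested limma called 0, beside 0.464% of all genes. An unadjusted p under 0.05 was reached by 1 member, Pecam1, and by 12.8% of all genes, and no member had 2 groups without overlap, beside 18.6% of all genes. The differences included those of Pecam1 (log2 fold change -0.22, 95% confidence interval -0.41 to -0.02, FDR = 0.339, limma) and Sirpa (-0.19, interval -0.66 to 0.28, FDR = 0.758, limma), where the Sirpa value was -0.39 without young replicate 1 and -0.08 without young replicate 2. For Cd22, Siglecg and Cd72 the log2 fold changes were 0.03, -0.02 and 0.11, with intervals that ended at 0.15, 0.09 and 0.25 on the upper side. Ptpn6 had a log2 fold change of -0.16 (interval -0.36 to 0.04) and Inpp5d of -0.02 (interval -0.17 to 0.13). Differences of the size seen between ABCs and FO B cells were outside these intervals for Cd22, Siglecg, Cd72, Pirb, Sirpa and Pecam1.

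The comparison of ABCs with young FO B cells uses the same ABC libraries and is given for completeness. Here 9 members were tested, of which 4 were higher in ABCs (Cd22, Cd72, Pirb and Sirpa), 2 were lower (Siglecg and Pecam1) and 3 were not called. Of 10438 genes tested, 40.7% were called, 21.6% higher and 19.1% lower. Log2 fold changes were 1.098 for Cd22, 2.22 for Cd72, 0.91 for Pirb and 3.83 for Sirpa. They were -0.73 for Siglecg and -0.89 for Pecam1. Cd5 (0.94, FDR = 0.0861, limma) overlapped between the groups and was not called. Lair1 was under the filter. Where an alternative let it be tested, its log2 fold change was 0.43 with no filter, 0.47 with scaling to TPM and 0.30 without young replicate 1 (FDR = 0.311 to 0.548, limma), and 0.72 without ABC replicate 3 (FDR = 0.0410, limma).

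The members were then set beside other genes of the same pathway. Other ITIM receptors were called in both directions in ABCs. Of 9 tested among 18 present in the tables, 5 were higher and 3 lower than in aged FO B cells (35.9% of all genes were called), with a median log2 fold change of 0.51. Lilrb4a, an inhibitory receptor of myeloid cells with a close paralog that may share its reads, was at 146, 149 and 307 FPKM in ABC replicates 1 to 3 and at 5.59 to 7.71 FPKM in aged FO B cells (log2 fold change 4.63, FDR = 5.82e-05, limma). Cd300lf, a lipid-binding receptor, had a log2 fold change of 4.04, and Fcrl5, an Fc receptor-like receptor of B cells, of 2.85. Fcgr2b, the inhibitory receptor for IgG, was at 804, 738 and 803 FPKM in ABC replicates 1 to 3 and at 182, 149 and 190 FPKM in aged FO B cells (log2 fold change 2.17, FDR = 1.78e-05, limma). Clec12a, a lectin-like receptor, fell by 2.49 on the log2 scale. In ABCs, every Fcgr2b value was below every Cd22 value.

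Of 15 phosphatases and inhibitory adaptors other than the members, 4 were higher and 3 lower in ABCs, beside 35.9% of all genes called, with a median log2 fold change of 0.07. Ptpn22, a tyrosine phosphatase that acts on Src and Syk family kinases, was higher by a log2 fold change of 2.88, and Inppl1, which encodes SHIP-2, by 1.17. Dok3, an adaptor of inhibitory signaling, had a log2 fold change of 0.62 (FDR = 0.0469, limma), a call that was kept in 2 of 6 fits with 1 library left out (FDR up to 0.125, log2 fold change 0.37 without ABC replicate 3). The lipid phosphatase Inpp4b was lower, with a log2 fold change of -1.76. Ptpn11, which encodes SHP-2, had a log2 fold change of 0.37 and was not called (FDR = 0.0729, limma).

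Among 14 ligands and enzymes of sialic acid metabolism, 8 were higher in ABCs and 0 lower in limma, also 0 lower at an unadjusted p under 0.05, beside 19.4% of all genes higher and 16.5% lower, with a median log2 fold change of 0.42. Cd38, a ligand of CD31, was higher by a log2 fold change of 1.12, while Pecam1 itself was lower. Cmas, which activates sialic acid for transfer, had a log2 fold change of 0.69, and the MHC class I genes H2-K1 and H2-D1 had 0.59 and 0.52. St6gal1, which makes the sialic acid linkage that CD22 prefers, was at 66.4, 63.9 and 72.3 FPKM in ABC replicates 1 to 3 and 48.4, 50.1 and 51.0 FPKM in aged FO B cells (log2 fold change 0.43, FDR = 0.00354, limma). The ligand genes of SIRPα and CD72, singled out after their values were seen, were Cd47, with a log2 fold change of 0.50 (FDR = 0.00181, limma), and Sema4d, which was not called (-0.07, FDR = 0.775, limma).

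Of 7 genes of the BCR complex and its proximal kinases, 3 were higher and 1 lower in ABCs (19.4% and 16.5% of all genes), with a median log2 fold change of 0.10. Syk had a log2 fold change of 1.33, Lyn, the kinase that phosphorylates ITIMs, of 0.53 (FDR = 0.000862, limma) and Plcg2 of 0.45, whereas Btk had -0.44. Lyn was at 252, 254 and 264 FPKM in ABC replicates 1 to 3 and 173, 187 and 174 FPKM in aged FO B cells. Of the activating paralogs of the receptors and their adaptors, 4 of 10 in the tables were tested and all 4 were higher, beside 19.4% of all genes. Apart from the Pira genes these were the ITAM adaptors Fcer1g, at 418, 458 and 1219 FPKM in ABC replicates 1 to 3 against 1.14 to 10.4 FPKM in aged FO B cells, and Tyrobp, with a log2 fold change of 1.91. The Pira proteins reach the cell surface with the Fcer1g chain.

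**Figure D4:**
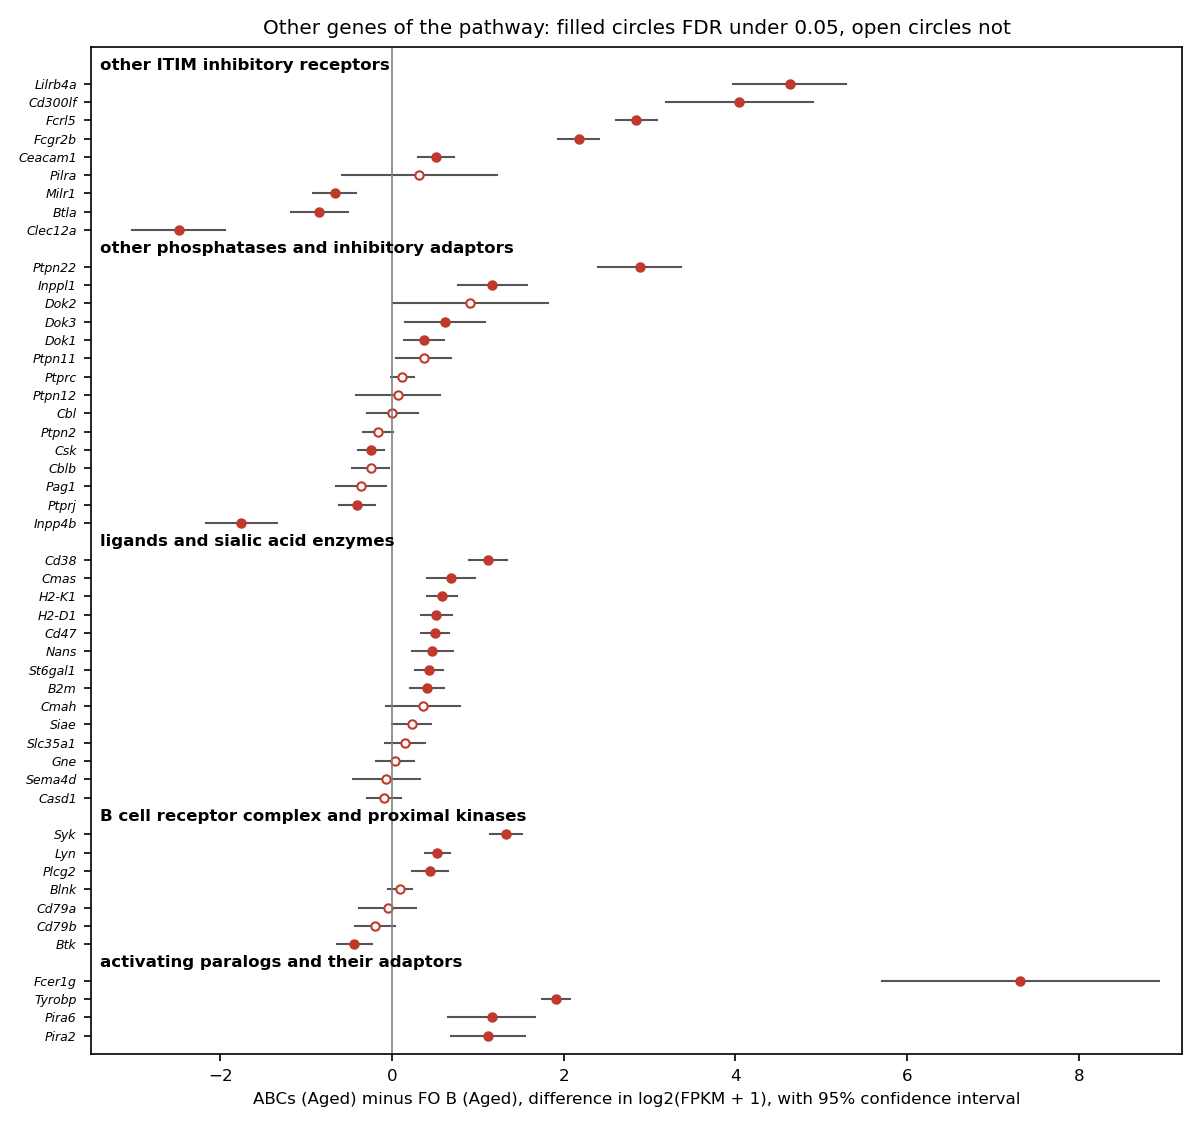
Difference in log2(FPKM + 1) between ABCs and aged FO B cells (x axis, positive where ABCs are higher) for the tested genes of the 5 pathway lists, with 95% confidence intervals; filled circles have an FDR under 0.05. Receptors and phosphatases lie on both sides of 0, whereas all filled circles among ligands and sialic acid enzymes lie to the right.

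Between aged and young FO B cells, 1 gene of these 5 lists (9, 14, 14, 7 and 4 genes tested) was called, Lilrb4a, beside 0.464% of all genes. It was at 6.79, 7.71 and 5.59 FPKM in aged and 2.36, 1.77 and 1.59 FPKM in young mice, with no overlap (log2 fold change 1.40, FDR = 0.00872, limma). Fcgr2b had a log2 fold change of 0.48 and was not called (FDR = 0.0858, limma).

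Finally, the genes most like Sirpa and Siglecg, the members with the largest rise and fall over aged FO B cells, were taken by Pearson's r of log2(FPKM + 1) over the 9 libraries, which are 3 groups of 3 and not independent points, among 10375 genes. For Sirpa they were Grn (r = 0.997), Adssl1 (0.996) and Lgals1 (0.995), which were all high in ABCs, with Lgals1 at 494 FPKM there and 21.3 FPKM in aged FO B cells. The fall of Siglecg was close to that of Pecam1, which was the larger against young FO B cells (-0.89 and -0.73) and without ABC replicate 2 (-0.80 and -0.68) or 3 (-0.66 and -0.55). For Siglecg the genes were Ccdc71 (0.988), Pdcd7 (0.986) and Ltb (0.982). Ltb, which encodes lymphotoxin beta, averaged 267 FPKM in ABCs and 870.4 FPKM in aged FO B cells.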

How the data were processed

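Splenic B cells were sorted and sequenced in 9 libraries, and each library was assigned to its group and replicate number from the sample titles. Each library's deposited table gives 1 FPKM value per gene symbol. According to the labels and the methods, full-length cDNA was made with a SMART-Seq HT kit, and reads were mapped to mm10. Libraries were made with a Nextera XT kit according to the labels, whereas the methods name a Nextera DNA kit. The submitters' processing notes name TopHat2 2.1.1, Bowtie2 2.2.8, SAMtools 0.1.18 and Cuffdiff 2.2.1. The methods name other versions of TopHat, Bowtie2 and SAMtools, and Cufflinks for FPKM. The gene annotation is not given in the sources used here, and a Cufflinks-type FPKM can split reads among transcripts of near-identical genes. No strand setting was stated, so that reads of overlapping genes on opposite strands cannot be told apart.

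From the FPKM values, log2(FPKM + 1) was fitted on the 6 libraries of each comparison by lmFit and trended eBayes (limma 3.58.1, R 4.3.3), for genes averaging 1 FPKM or more, with Benjamini-Hochberg adjustment over all of them. For single values, mean FPKM was compared by exact two-sided permutation of the 6 libraries (20 orders). Intervals are 95% confidence intervals of limma. The limma script was first tested on simulated data. Depth was approximated through the FPKM that 1 read is worth in 499 genes, and Cd5 values came out as whole reads within 0.1 read. Positions are from GENCODE M21 on GRCm38 and promoters from RefSeq. Tables were made with Python 3.11.15, numpy 2.4.6 and pandas 2.3.3, and figures with matplotlib 3.10.9.

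All 10 members are named. From 5 pathway lists, at most 4 called genes per list and comparison with the largest change are named, plus Fcgr2b, Ptpn11, Lyn and St6gal1, and for the members with the largest rise and fall the 3 most correlated genes. The members and lists were chosen with earlier results of these data known, and 2 genes of the lists are not reported here. The 10 marker lists were read per library and not tested. NK cell markers summed to 24.4 to 38.0 FPKM in ABCs and 0.642 to 1.01 FPKM in aged FO B cells, mostly from Prf1, with 4 of 5 under 1 FPKM. For plasma cell markers the sums were 179.9 to 209.8 FPKM and 112 to 129.98 FPKM, and for neutrophil markers 0.322 to 1.31 FPKM and 1.18 to 24.5 FPKM. The alternatives changed the pseudocount (0.1, 0.01), the filter (none, 5 FPKM), the scaling (quantile, TPM, upper quartile), the trend of eBayes, the libraries fitted (all 9, each left out in turn), the threshold, and whether replicate number was a block.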

Additional observations from a re-analysis of the deposited data

How the results depend on the processing

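Over 27 log2 fold changes of members and the alternatives in which the member was still tested, 409 of 424 values kept their direction and their side of an FDR of 0.05. Alternatives that put a member under the filter are not counted. For Cd5 over aged FO B cells, a called member, these were the filter of 5 FPKM and the fits without ABC replicate 2 or 3. The number of members called between ABCs and aged FO B cells was 5 to 7 when single libraries were left out (7 with all), and 1 at the larger thresholds of the study. Against young FO B cells it was 6 to 7 (6 with all), and 1 at those thresholds. Between FO B groups it was 0 to 0. The replicate numbers were not used to pair samples, since the labels give no shared mouse and the deviations of same-numbered libraries of ABCs and aged FO B cells correlated at 0.08, -0.02 and 0.11, not all over 0.1, which does not show that no mice are shared. With the replicate number as a block 7 members were called, with no call changed. Directions reversed only among uncalled members. With quantile normalization the log2 fold change over aged FO B cells was -0.0043 for Lair1 and -0.0020 for Inpp5d, and that over young FO B cells was 0.0018 for Ptpn6 and -0.0414 for Inpp5d. When single libraries were left out, Ptpn6 ranged from -0.0290 to 0.218 over aged FO B cells (-0.0290 without ABC replicate 3) and from -0.187 to 0.0605 over young FO B cells (the latter without ABC replicate 2), and Inpp5d from -0.0666 to 0.0386 between FO B groups. The cause was not tested. Cd5 over young FO B cells passed an FDR of 0.05 with all 9 libraries in the fit (0.0453) and without ABC replicate 1 (0.0194). Counts of called genes in the pathway lists without ABC replicate 3, an alternative chosen after seeing the data, were 8, 9, 8, 4 and 4, against 8, 7, 8, 4 and 4, in the order other receptors, other phosphatases, ligands, BCR and activating paralogs.

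At 7430000 to 9040000 mapped reads, members near 1 FPKM rest on few reads, as the 4 to 8 reads of Cd5 in aged FO B cells show.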
